A study of Mus musculus with 23 samples.

Results

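The genes described here are the mitochondrial carriers of the SLC25 family, taken as the protein-coding rows of the deposited table whose mouse symbol is Slc25a followed by a number. There are 37 of them among 14500 rows. The annotation used holds 47 such genes, and the other 10 (Slc25a2, Slc25a13, Slc25a18, Slc25a21, Slc25a31, Slc25a41, Slc25a43, Slc25a48, Slc25a53 and Slc25a54) were not analysed here. All 37 were among the 12820 genes tested, which had at least 1 fragment per kilobase of exon per 1 M fragments (FPKM) in at least 2 libraries.

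SLC25 carriers are small membrane proteins, nearly all of the inner mitochondrial membrane, that move nucleotides, phosphate, carboxylates, amino acids, cofactors and metal ions between the matrix and the cytosol. In skeletal muscle the ADP/ATP carrier hands newly made ATP to the contracting fibre, the phosphate carrier supplies the ATP synthase, and the malate and aspartate/glutamate carriers pass reducing power from glycolysis to the respiratory chain. The carriers were sorted by substrate. ADP/ATP and phosphate had 3 members, calcium-regulated ATP-magnesium/phosphate 3, di- and tricarboxylates with aspartate/glutamate 4, acylcarnitine 1, amino acids 5, cofactors and nucleotides 8, iron and glutathione 4, and the uncoupling type 3. No substrate was assigned to the remaining 6.

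Total RNA was sequenced from whole tibialis anterior, a mostly fast-twitch shin muscle, of female C57BL/6 mice fed ad libitum, in 23 libraries of 8 groups. RE-RE mice are Bmal1(stopFL/stopFL) and carry both Hsa-Cre(-/tg) and Syt10-Cre(-/tg). In this line a stop cassette silences the clock gene Bmal1 (Arntl) except where Cre removes it, in neurons that include the central clock (Syt10-Cre) and in skeletal muscle fibres (Hsa-Cre), so other cells of the muscle lack it. The treatment, 6-hydroxydopamine (6-OHDA), destroys sympathetic nerve endings, which take it up. It was injected into the muscle at 50 mg/kg, in ascorbic acid, repeatedly over 2 weeks, with 2 weeks of recovery after it. Sham muscle was not injected, so the toxin, its vehicle and the injections cannot be told apart. RE-RE 6-OHDA muscle had 2 libraries at zeitgeber time (ZT) 12, lights off, and 2 at ZT0, lights on, from mice of 12 to 18 weeks. RE-RE sham muscle had 2 at each time, at 10 to 11 weeks. Wild-type 6-OHDA muscle had 4 at each time, from mice of 12 to 15 weeks at ZT12 and 15 to 16 weeks at ZT0. Wild-type sham muscle had 3 at ZT12 and 4 at ZT0, at 12 to 18 weeks. The labels tie no library to a named animal, so p-values measure the spread between these libraries.

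Totals of recovered reads lay between 21.1 and 36.1 M (median 28.1 M). Residual spread was larger in RE-RE than in wild-type libraries, with a median SD of 0.38 and 0.22 log2 units over the carriers. It was larger in RE-RE for 34 of 37 carriers (91.9%), against 91.7% of all genes tested (median SD 0.45 and 0.22). The tests pool the spread over all groups, so p-values of RE-RE comparisons can be too small and those of wild-type comparisons too large. Of the RE-RE libraries 3 stood apart. RE-RE 6-OHDA replicate 2 had summed macrophage markers of 19.6 FPKM, against 95.02 to 362 FPKM in the other RE-RE 6-OHDA libraries, and RE-RE sham replicates 1 and 3 had the highest shares of mitochondrial-genome reads of all libraries, 27.6% and 23.1%. Arntl averaged 3.17 FPKM at ZT12 and 9.24 FPKM at ZT0 in RE-RE 6-OHDA muscle, 3.45 and 12.7 FPKM in RE-RE sham, 1.48 and 9.84 FPKM in wild-type 6-OHDA, and 2.03 and 14.2 FPKM in wild-type sham. Markers of skeletal muscle summed to at least 36247 FPKM in every library.

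Slc25a4, the ADP/ATP carrier of heart and muscle (also Ant1; GRCm38 chromosome 8, 46206797 to 46211284), made up most of the family's RNA. Its level ran from 805 to 2812 FPKM, with a mean of 1557 FPKM over the 23 libraries, and it took 64.0% to 81.4% of the summed carrier FPKM. It was the highest carrier in every library. Slc25a3, the phosphate carrier, followed at a mean of 153 FPKM, Slc25a11, the oxoglutarate/malate carrier, at 142 FPKM, and Slc25a12, the aspartate/glutamate carrier of muscle, at 71.0 FPKM. Slc25a3 and Slc25a11 did not keep one order, since in 5 libraries Slc25a11 was the higher. These 4 carriers together held 83.8% to 93.3% of the family's FPKM.

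The rest of the family was far lower per length of transcript. Slc25a5, the ADP/ATP carrier of dividing cells (Ant2), averaged 34.3 FPKM. The level of Slc25a4 was 22.0 to 75.2 times that of Slc25a5 in RE-RE 6-OHDA muscle, 62.9 to 83.7 times in RE-RE sham, 17.0 to 44.7 times in wild-type 6-OHDA and 48.6 to 73.0 times in wild-type sham, and the 2 wild-type ranges did not overlap. In the other substrate groups the highest mean was 8.39 FPKM for Slc25a25 among ATP-magnesium/phosphate carriers, 13.9 FPKM for Slc25a20 (carnitine/acylcarnitine), 6.52 FPKM for Slc25a44 (branched-chain amino acids), 13.4 FPKM for Slc25a51 (NAD+), 15.2 FPKM for Slc25a39 (glutathione), 5.29 FPKM for Slc25a27 (also Ucp4) and 14.7 FPKM for Slc25a46, which acts in mitochondrial dynamics at the outer membrane. Slc25a14, of the uncoupling type, was lowest at 0.785 FPKM. Exons of some carriers overlap another gene, and the strand of counting is not given in the sources used here. The overlap covered 31.3% of the exon length of Slc25a35 (with Rangrf), 14.9% of Slc25a33 (with Gm13068, at 0.299 FPKM) and 8.92% of Slc25a11 (with Rnf167), so their reads are uncertain to that extent.

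**Figure D1:**
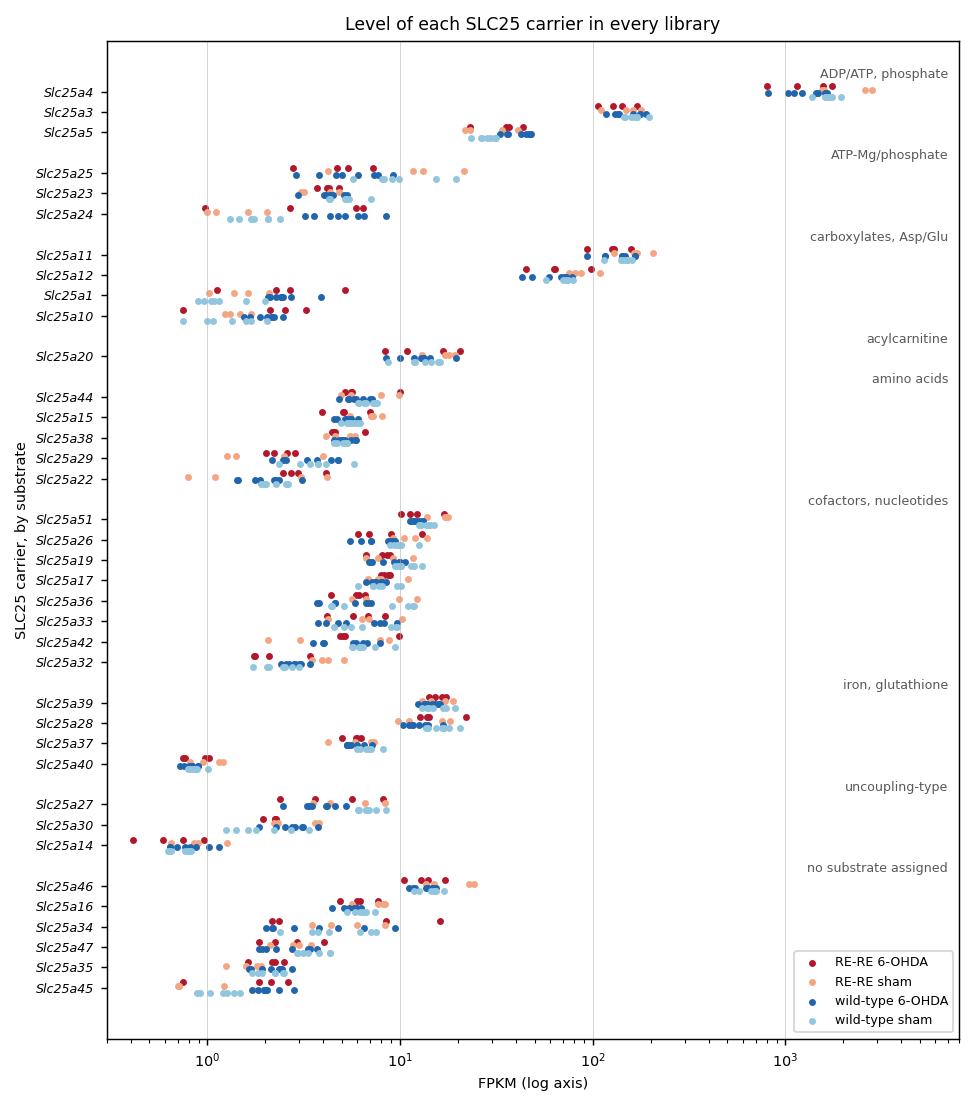
Level of each of the 37 SLC25 carriers in FPKM on a log axis, 1 point per library, sorted by substrate, with RE-RE 6-OHDA, RE-RE sham, wild-type 6-OHDA and wild-type sham libraries in separate colours. Slc25a4 stands alone between 805 and 2812 FPKM, and the carriers other than Slc25a3, Slc25a5, Slc25a11 and Slc25a12 reach at most 24.1 FPKM.

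The time of day was compared within each genotype and treatment, as ZT12 minus ZT0. In wild-type muscle the carriers of pyrimidine nucleotides, Slc25a36 and Slc25a33, moved in opposite directions. These proteins carry the pyrimidine nucleotides from which mitochondria make their own DNA and RNA. Promoter windows are shown because both hold the E-box CACGTG, to which the clock activators bind. RefSeq windows on GRCm38.p6 were available for 28 of the 37 carriers and run from 250 bases before to 50 bases after the start. Both windows are on the minus strand, at chr9:97110992-97111291 for Slc25a36 and chr4:149774218-149774517 for Slc25a33, and capitals mark the E-box and, in Slc25a36, the cyclic AMP response element TGACGTCA.
Slc25a36: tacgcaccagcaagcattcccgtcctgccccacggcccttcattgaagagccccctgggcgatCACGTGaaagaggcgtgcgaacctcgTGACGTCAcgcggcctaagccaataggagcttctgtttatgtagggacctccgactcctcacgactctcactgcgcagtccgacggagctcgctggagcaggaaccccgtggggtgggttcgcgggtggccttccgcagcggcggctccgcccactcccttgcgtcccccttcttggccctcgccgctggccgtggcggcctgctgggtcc
Slc25a33: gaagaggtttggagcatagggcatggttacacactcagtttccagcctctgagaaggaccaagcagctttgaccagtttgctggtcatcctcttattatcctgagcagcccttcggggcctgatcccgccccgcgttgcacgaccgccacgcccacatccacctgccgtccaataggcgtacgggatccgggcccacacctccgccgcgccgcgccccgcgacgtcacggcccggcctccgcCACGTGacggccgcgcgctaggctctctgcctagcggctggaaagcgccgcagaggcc
The E-box lies 187 bases before the start in Slc25a36 and 8 bases before it in Slc25a33. Of the 28 carriers 5 held the E-box (17.9%; Slc25a1, Slc25a14, Slc25a15, Slc25a33 and Slc25a36), against 8.09% of 27025 genes with a window. Those genes include some with no row among the 14500 measured here, so the shares are of unlike sets. Slc25a1, Slc25a14 and Slc25a15 were not called for time below. No E-box match was found for Slc25a30 and Slc25a34, which were, and carriers without a window were not searched. The cyclic AMP response element stood in 2 carriers (7.14%), Slc25a36 and Slc25a25, against 2.03% of genes. Neither motif overlaps the other, and both read the same on either strand. A D-box (TTATGTAA, in 1.11% of genes), a REV-ERB/ROR site (GTAGGTCA, in 0.711%), an ERR site (TCAAGGTCA, in 0.47%) and an NRF1 site (in 1.07%), searched on both strands, were in no carrier window. These are matches of letters and do not show binding.

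In wild-type sham muscle 2 of 37 carriers passed the test (limma, adjusted p under 0.05 over all genes), which is 5.41%, against 0.647% of all genes. Slc25a36 (chromosome 9, 97074961 to 97111157) had 5.10, 4.36 and 4.45 FPKM at ZT12, against 11.7, 9.05, 11.7 and 10.9 FPKM at ZT0. All 3 ZT12 libraries were below every ZT0 library. The log2 difference was -1.22 ± 0.15 (SE), with a limma adjusted p of 0.000256. Leaving out any 1 library gave -1.31 to -1.18, and the call was kept each time. Slc25a30, an uncoupling-type carrier (chromosome 14, 75760117 to 75787037), had 3.35, 2.22 and 2.72 FPKM at ZT12, against 1.41, 1.62, 1.25 and 1.79 FPKM at ZT0. It rose by 0.86 ± 0.17 on the log2 scale (adjusted p = 0.0161), again without overlap. That call was lost without sham replicate 1, 3, 5 or 7 (adjusted p of 0.0547 to 0.149, differences 0.71 to 0.86). It was also lost under 2 of 10 other settings (adjusted p up to 0.105), among them scaling to own totals of reads (0.88, adjusted p = 0.0956).

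Groups that did not overlap were more frequent than calls. Of the 37 carriers 9 were higher in all 3 ZT12 libraries of wild-type sham muscle (Slc25a5, Slc25a10, Slc25a11, Slc25a20, Slc25a28, Slc25a30, Slc25a33, Slc25a34 and Slc25a37) and 3 lower (Slc25a1, Slc25a25 and Slc25a36), against 12.2% of all genes without overlap in either direction. Slc25a33 had a log2 difference of 0.80 ± 0.21 (adjusted p = 0.112) and Slc25a34 of 1.02 ± 0.27 (adjusted p = 0.127). The median difference over the carriers was 0.08, against -0.01 over all genes.

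In wild-type 6-OHDA muscle 3 carriers passed, 8.11% against 0.671% of all genes. Slc25a36 had 4.60, 3.72, 4.61 and 3.79 FPKM at ZT12, against 5.82, 6.85, 7.03 and 6.69 FPKM at ZT0. It fell by 0.66 ± 0.14 (adjusted p = 0.0270), with all 4 ZT12 libraries below every ZT0 library. Slc25a33 (chromosome 4, 149744036 to 149774277) had 7.90, 7.34, 8.23 and 9.67 FPKM at ZT12, against 3.74, 4.12, 4.76 and 5.24 FPKM at ZT0. It rose by 0.89 ± 0.20 (adjusted p = 0.0381), and the groups did not overlap. Of the 37 carriers 5 were without overlap above ZT0 (Slc25a25, Slc25a28, Slc25a30, Slc25a33 and Slc25a34) and Slc25a36 below it, against 7.29% of all genes in either direction. Over both treatments together, Slc25a33 was higher in all 7 wild-type ZT12 libraries than in any of 8 ZT0 libraries, and Slc25a36 lower, where 1.15% of all genes were without overlap. Slc25a34, whose substrate is not assigned here (chromosome 4, 141618824 to 141623821), had 3.79, 4.74, 9.38 and 6.54 FPKM at ZT12, against 2.16, 2.81, 2.02 and 2.19 FPKM at ZT0. It rose by 1.33 ± 0.25 (adjusted p = 0.0132). Leaving out 1 library at a time lost the call of Slc25a33 in 7 of 8 cases (adjusted p up to 0.168), of Slc25a36 in 6 (up to 0.128) and of Slc25a34 in 4 (up to 0.0648), while the differences stayed at 0.81 to 0.98, -0.72 to -0.61 and 1.10 to 1.54. The number of carriers called fell to 0 without 6-OHDA replicate 3 or 8 (0.320% and 0.328% of all genes), and to 1 without replicate 1, 2, 5, 6 or 7 (0.265% to 0.601% of all genes). With age as a covariate none passed (0.265% of all genes). In this group the ZT12 mice were 12 to 15 weeks old and the ZT0 mice 15 to 16 weeks. Time and age therefore cannot be fully told apart in it.

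In RE-RE muscle of both treatments Slc25a36 and Slc25a33 each had the sign of its own wild-type difference, but with 6-OHDA the times overlapped. In RE-RE sham muscle no carrier passed, against 0.0546% of all genes, and 4 had an unadjusted p under 0.05 (10.8%, against 5.14% of all genes). The smallest p-values were those of Slc25a36, Slc25a30 and Slc25a33. Slc25a36 had 6.67 and 5.63 FPKM at ZT12, against 12.3 and 9.88 FPKM at ZT0, a log2 difference of -0.84 ± 0.19 (adjusted p = 0.189). Slc25a30 had 3.81 and 3.63 FPKM at ZT12, against 2.20 and 2.32 FPKM at ZT0 (0.71 ± 0.22, adjusted p = 0.52). Slc25a33 had 10.3 and 6.92 FPKM at ZT12, against 4.21 and 6.33 FPKM at ZT0 (0.71 ± 0.28, adjusted p = 0.82). These were named for their small p-values, and in each both ZT12 libraries lay on one side of both ZT0 libraries, as did those of 11 of the 37 carriers and of 14.4% of all genes. In RE-RE 6-OHDA muscle Slc25a36 had 6.61 and 4.37 FPKM at ZT12, against 5.93 and 6.12 FPKM at ZT0 (-0.16 ± 0.19, adjusted p = 0.712). Slc25a33 had 6.84 and 5.71 FPKM at ZT12, against 4.18 and 8.32 FPKM at ZT0 (0.08 ± 0.28, adjusted p = 0.915), and Slc25a30 had 2.23 and 2.27 FPKM at ZT12, against 1.95 and 2.25 FPKM at ZT0 (0.10 ± 0.22, adjusted p = 0.855). The times overlapped for all 3 in RE-RE 6-OHDA muscle.

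Slc25a34 went the other way in RE-RE muscle. In RE-RE 6-OHDA libraries it had 2.17 and 2.35 FPKM at ZT12, against 8.46 and 16.2 FPKM at ZT0, and was the only carrier past the test, where 0.109% of all genes passed. It fell by 2.37 ± 0.36 (adjusted p = 0.0119). The difference from the time effect of wild-type 6-OHDA muscle was -3.70 ± 0.44 (adjusted p = 0.00107), the only carrier called for that difference, against 0.0546% of all genes. Leaving out any 1 library gave -4.17 to -3.24, and the call was kept each time. It was not kept with only the compared groups in the fit (-3.70, adjusted p = 0.0592) or with array weights (-3.76, adjusted p = 0.223). The time effect itself was not called without RE-RE 6-OHDA replicate 2 (-1.90, adjusted p = 0.184), which held the highest value and stood apart, nor without replicate 3 (-2.31, adjusted p = 0.0776) or 4 (-2.43, adjusted p = 0.0654). Without replicate 1, 8 carriers were called for the time effect (14.1% of all genes) and 11 for its difference from wild-type (14.3% of all genes).

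In sham muscle Slc25a34 had 3.51 and 4.38 FPKM at ZT12, against 5.95 and 8.38 FPKM at ZT0, in RE-RE mice. In wild-type sham muscle it had 7.08, 7.47 and 6.17 FPKM at ZT12, against 4.28, 2.37, 3.49 and 3.75 FPKM at ZT0. The difference between these time effects, tested after these values were seen, was -1.87 ± 0.45 and did not pass (unadjusted p = 0.000576, adjusted p = 0.503). No carrier passed there, against 0.0156% of all genes. An unadjusted p under 0.05 was found for 2 carriers (5.41%, against 2.87% of all genes), Slc25a34 and Slc25a20 (-0.77 ± 0.32), and Slc25a25 had the next smallest (1.21 ± 0.66). Every RE-RE ZT12 value of Slc25a34 was thus below every RE-RE ZT0 value, and every wild-type ZT12 value of a treatment above its ZT0 values. This was seen in the values and not planned. The share of all genes split in this way over both RE-RE treatments was not counted. In RE-RE sham muscle alone 14.4% of all genes were without overlap. Markers of slow or oxidative fibre had a median time difference of 1.74 in RE-RE 6-OHDA muscle and -0.08 in wild-type 6-OHDA muscle, with none of 7 past the test. Their part in the difference was not tested.

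**Figure D2:**
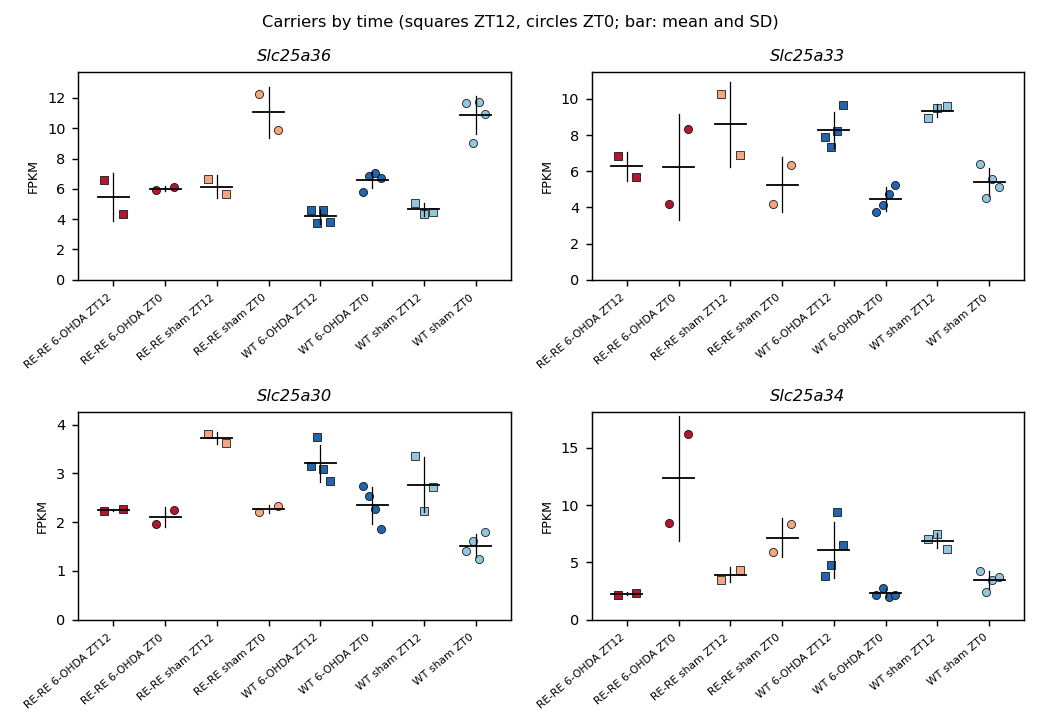
Levels of Slc25a36, Slc25a33, Slc25a30 and Slc25a34 in FPKM (linear axis from 0), 1 point per library, with ZT12 left of ZT0 in each genotype and treatment and a bar for the mean and SD. Slc25a36 lies lower and Slc25a33 higher at ZT12 in wild-type muscle of both treatments, and Slc25a34 runs in opposite directions in RE-RE and wild-type muscle.

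Slc25a25, a calcium-regulated ATP-magnesium/phosphate carrier (chromosome 2, 32414487 to 32451445), had time differences of opposite sign in the wild-type treatments. Its window at chr2:32424017-32424316, on the minus strand and 1 of 3 windows of this gene, holds the cyclic AMP response element 150 bases before the start, shown in capitals.
Slc25a25: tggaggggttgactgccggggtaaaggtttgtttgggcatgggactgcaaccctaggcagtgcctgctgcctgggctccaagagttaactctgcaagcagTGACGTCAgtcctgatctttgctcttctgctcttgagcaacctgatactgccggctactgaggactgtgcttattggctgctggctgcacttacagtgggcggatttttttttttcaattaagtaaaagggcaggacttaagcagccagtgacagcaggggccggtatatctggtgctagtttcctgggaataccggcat
In wild-type 6-OHDA muscle it had 9.14, 7.71, 7.36 and 6.07 FPKM at ZT12, against 2.87, 4.64, 3.78 and 4.97 FPKM at ZT0. In wild-type sham muscle it had 5.68, 8.01 and 8.29 FPKM at ZT12, against 9.88, 9.06, 15.3 and 19.6 FPKM at ZT0. Neither pair of groups overlapped, and the order of the times was reversed between the treatments. The time effects were 0.91 ± 0.37 with 6-OHDA and -0.82 ± 0.40 in sham muscle, and neither passed (adjusted p = 0.535 and 0.761). The difference between them, 1.74 ± 0.55, had an unadjusted p of 0.00517 and an adjusted p of 1. With array weights it was 2.02 and passed (adjusted p = 0.0186), and under the other settings the adjusted p was 0.268 to 1. No carrier passed this comparison, against 0.00780% of all genes. An unadjusted p under 0.05 was found for 2 carriers (5.41%, against 2.15% of all genes), Slc25a25 and Slc25a36 (0.56 ± 0.20), and Slc25a47 had the next smallest (0.68 ± 0.33).

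The treatment was compared as 6-OHDA minus sham, averaged over both times. In wild-type muscle 12 of 37 carriers passed, 6 higher and 6 lower. This is 32.4%, against 34.8% of all genes (18.8% higher and 15.9% lower), so the carriers were called no more often than genes in general. The carriers that rose were Slc25a24, Slc25a1, Slc25a45, Slc25a10, Slc25a5 and Slc25a30, and those that fell were Slc25a27, Slc25a25, Slc25a47, Slc25a36, Slc25a28 and Slc25a26. The median over the carriers was -0.13, against -0.04 over all genes. With each library scaled to its own total of recovered reads, the median of all genes moved to 0.29 and 13 carriers were higher and 1 lower, so the direction of small differences depends on the scaling. The median of the carriers minus that of all genes was -0.09 under either scaling.

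Among ATP-magnesium/phosphate carriers, Slc25a24 (chromosome 3, 109123149 to 109168457) was higher after treatment. It had 3.23, 4.97 and 8.49 FPKM (lowest, median, highest of 8) in wild-type 6-OHDA muscle, against 1.31, 1.74 and 2.39 FPKM in 7 sham libraries. The log2 difference was 1.50 ± 0.31 (adjusted p = 0.00230), and all 8 treated libraries were above every sham library. Slc25a25 of the same group had 2.87, 5.52 and 9.14 FPKM with 6-OHDA, against 5.68, 9.06 and 19.6 FPKM in sham muscle, and fell by 0.82 ± 0.27 (adjusted p = 0.0283). The ranges overlapped, and the call was lost in 6 of 15 cases with 1 library left out (adjusted p up to 0.064). Slc25a25 averaged 4.06 FPKM with 6-OHDA and 13.5 FPKM in sham muscle at ZT0, but 7.57 and 7.33 FPKM at ZT12. The mean was thus lower with 6-OHDA at ZT0 only, although the change of the effect with time did not pass. Slc25a23, the other member measured, was at -0.29 ± 0.13 and short of the threshold (adjusted p = 0.0743).

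Among the carriers of carboxylates, Slc25a1, the citrate carrier that exports citrate for lipid synthesis (chromosome 16, 17925223 to 17928219), had 2.07, 2.40 and 3.87 FPKM with 6-OHDA, against 0.893, 1.08 and 1.99 FPKM in sham muscle. It rose by 1.09 ± 0.22 (adjusted p = 0.00218), without overlap. Slc25a10, the dicarboxylate carrier, averaged 2.02 ± 0.302 FPKM with 6-OHDA (SD, n = 8) and 1.35 ± 0.451 FPKM in sham muscle (SD, n = 7). Its rise of 0.58 ± 0.20 (adjusted p = 0.0337) was not called in 9 of 15 cases with 1 library left out (adjusted p up to 0.0769). The abundant members of the malate/aspartate shuttle did not pass, with differences of -0.11 for Slc25a11 and -0.18 for Slc25a12.

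The ADP/ATP carriers of muscle and of dividing cells had differences of opposite sign. Slc25a5 (chromosome X, 36795651 to 36798807) had 32.8, 43.7 and 48.0 FPKM with 6-OHDA, against 23.3, 28.4 and 31.6 FPKM in sham muscle. It rose by 0.55 ± 0.15 (adjusted p = 0.00919), without overlap. Slc25a4 had 815, 1326 and 1644 FPKM with 6-OHDA, against 1381, 1683 and 1949 FPKM in sham muscle, a difference of -0.40 ± 0.19 that did not pass (adjusted p = 0.11). Slc25a4 and Slc25a5 are close paralogs, and reads shared between them or with pseudogene copies are uncertain.

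The uncoupling-type carriers also split. Slc25a27 (chromosome 17, 43641891 to 43667214) had 2.46, 3.81 and 5.22 FPKM with 6-OHDA, against 6.03, 6.67 and 8.47 FPKM in sham muscle. It fell by 0.89 ± 0.21 (adjusted p = 0.00487), and all 8 treated libraries were below every sham library. Slc25a30 had 1.85, 2.80 and 3.74 FPKM with 6-OHDA, against 1.25, 1.79 and 3.35 FPKM in sham muscle, and rose by 0.43 ± 0.11 (adjusted p = 0.00863). Its ranges overlapped. Slc25a14, at 0.17, was not called.

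Of the carriers with no substrate assigned, Slc25a45 (chromosome 19, 5877808 to 5885878) had 1.70, 2.00 and 2.80 FPKM with 6-OHDA, against 0.884, 1.20 and 1.47 FPKM in sham muscle. It rose by 0.84 ± 0.20 (adjusted p = 0.00476), without overlap. Slc25a47 averaged 2.66 ± 0.743 FPKM with 6-OHDA (SD, n = 8) and 3.54 ± 0.606 FPKM in sham muscle (SD, n = 7), and fell by 0.44 ± 0.17 (adjusted p = 0.0495), a call lost in 12 of 15 cases with 1 library left out. In all, 5 carriers were without overlap between wild-type 6-OHDA and sham muscle, Slc25a1, Slc25a5, Slc25a24 and Slc25a45 above and Slc25a27 below, where 13.9% of all genes were.

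Among cofactor and nucleotide carriers, Slc25a36 had 3.72, 5.22 and 7.03 FPKM with 6-OHDA, against 4.36, 9.05 and 11.7 FPKM in sham muscle, and fell by 0.43 ± 0.10 (adjusted p = 0.00448). Its means with 6-OHDA and in sham muscle were 6.60 and 10.9 FPKM at ZT0, and 4.18 and 4.64 FPKM at ZT12. Most of the fall was thus at ZT0, and the change with time did not pass. Slc25a26, the S-adenosylmethionine carrier, averaged 7.75 ± 1.48 FPKM with 6-OHDA (SD, n = 8) and 10.0 ± 1.16 FPKM in sham muscle (SD, n = 7) and fell by 0.39 ± 0.14 (adjusted p = 0.0436), a call lost in 11 of 15 cases with 1 library left out. Slc25a28, an iron importer also called mitoferrin 2 (chromosome 19, 43663801 to 43674881), had 10.3, 12.2 and 16.7 FPKM with 6-OHDA, against 13.7, 16.5 and 20.5 FPKM in sham muscle, and fell by 0.40 ± 0.13 (adjusted p = 0.0304), a call lost in 6 of 15 such cases. None of the 5 amino acid carriers passed, nor did Slc25a20, with a difference of -0.07. With scaling to own totals the falls of Slc25a25, Slc25a26, Slc25a28, Slc25a36 and Slc25a47 were -0.48, -0.05, -0.06, -0.10 and -0.10 and did not pass, while the fall of Slc25a27 (-0.55) and all 6 rises did. The number called fell to 7 without 6-OHDA replicate 1 (26.0% of all genes) or without sham replicate 6 (27% of all genes).

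**Figure D3:**
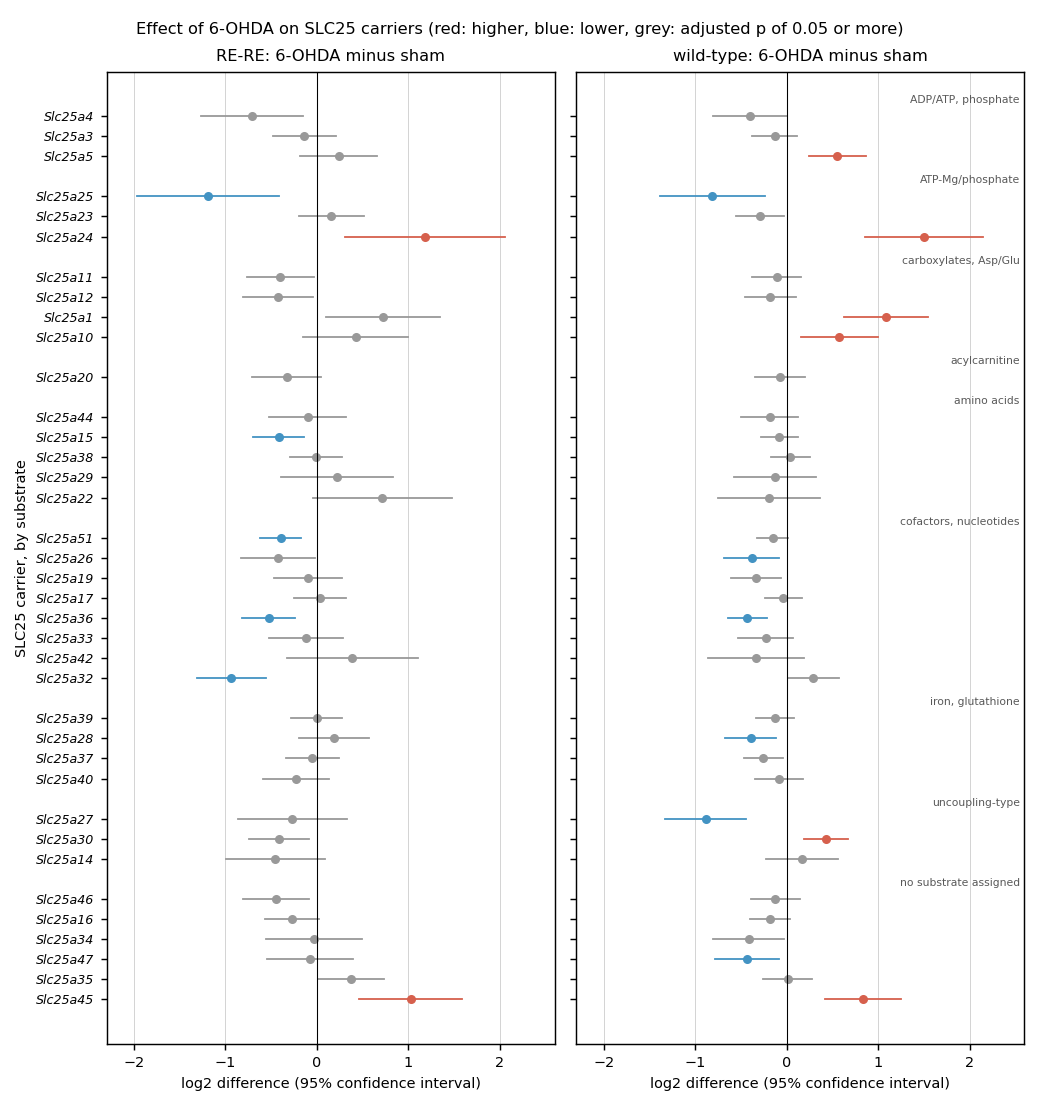
Log2 difference of 6-OHDA minus sham for each carrier with its 95% confidence interval, RE-RE on the left and wild-type on the right, sorted by substrate, coloured where the adjusted p was under 0.05. The largest rise in both genotypes is that of Slc25a24 (1.18 and 1.50), and the RE-RE intervals are wider.

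Markers of other cells moved with the treatment in the same libraries. For comparison, 18.8% of all genes rose and 15.9% fell in wild-type muscle. In wild-type muscle all 9 macrophage markers rose (median 2.53), with a summed level of 165 to 587 FPKM with 6-OHDA, against 27.6 to 74.2 FPKM in sham muscle. All 7 fibroblast and matrix markers rose (median 2.05; 459 to 1522 FPKM, against 126 to 327 FPKM), as did 9 of 10 markers of regenerating fibre and myoblasts (median 1.90; 54.1 to 214 FPKM, against 34.5 to 52.7 FPKM). Of the slow or oxidative fibre markers 6 of 7 rose (median 1.67), and of the adipocyte and Schwann cell markers 3 of 5 and 3 of 6. Of the general skeletal muscle markers 4 of 7 fell and 1 rose (median -0.58), 3 of 5 erythroid markers tested fell, and 1 of 6 endothelial markers rose. Every macrophage and fibroblast marker was above 0 in all libraries, and of the regeneration markers Mymk and Mymx were at 0 in 1 library each and Chrng in 2. Their part in the carriers' differences was not tested. In whole muscle, fewer cells of a type and less RNA per cell cannot be told apart.

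**Figure D4:**
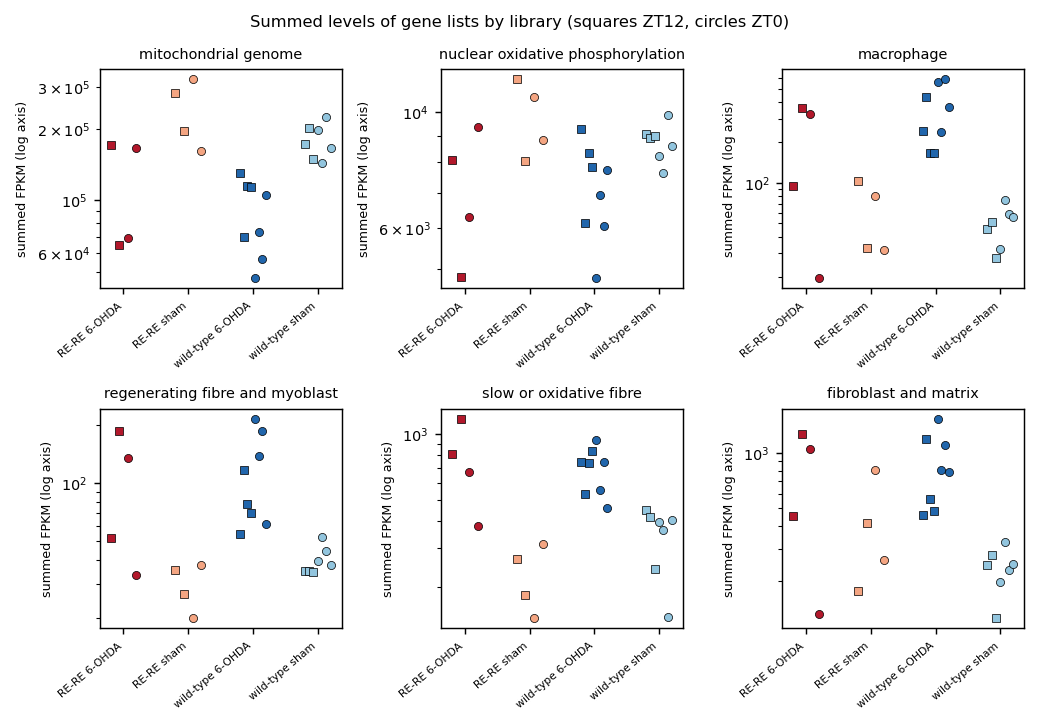
Summed FPKM of 6 gene lists on log axes, 1 point per library (squares ZT12, circles ZT0), with RE-RE 6-OHDA, RE-RE sham, wild-type 6-OHDA and wild-type sham from left to right. Macrophage, fibroblast and regeneration markers lie higher in wild-type 6-OHDA than in wild-type sham libraries, and RE-RE 6-OHDA replicate 2, at 19.6 FPKM of macrophage markers, lies below every sham library in that panel.

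In RE-RE muscle 7 of 37 carriers passed for the treatment, 2 higher and 5 lower, which is 18.9% against 26.9% of all genes (11.9% higher and 15.0% lower). The RE-RE 6-OHDA mice were 12 to 18 weeks old and the RE-RE sham mice 10 to 11 weeks, so the groups did not overlap in age. With age as a covariate 0 carriers passed (0.0234% of all genes), and the carriers' median difference was 0.01. Array weights also left 0 (0% of all genes), as did fitting the compared groups alone (0.0156% of all genes). Slc25a32, the folate and FAD carrier (chromosome 15, 39091231 to 39112716), had 1.75 and 1.76 FPKM at ZT12 and 2.08 and 3.43 FPKM at ZT0 in RE-RE 6-OHDA muscle, against 4.21 and 3.51 FPKM at ZT12 and 5.13 and 3.94 FPKM at ZT0 in RE-RE sham muscle. All 4 treated libraries were below every sham library, the only carrier without overlap, where 4.62% of all genes were. It fell by 0.94 ± 0.18 (adjusted p = 0.00965), and the call was lost without 6-OHDA replicate 1 (-0.76, adjusted p = 0.0783) or 4 (-0.94, adjusted p = 0.0607). In the values that follow, both ZT12 libraries of a group come before both ZT0 libraries. Slc25a24 had 2.67, 6.45, 5.91 and 0.972 FPKM with 6-OHDA, against 0.993, 1.63, 2.05 and 1.11 FPKM in sham muscle. It rose by 1.18 ± 0.42 (adjusted p = 0.0440), although the treated library that stood apart was the lowest of all 8.

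Slc25a45 had 1.84, 2.61, 2.13 and 0.751 FPKM with 6-OHDA, against 0.714, 1.22, 0.709 and 0.708 FPKM in sham muscle, and rose by 1.03 ± 0.27 (adjusted p = 0.0190). Slc25a25 had 7.25, 4.73, 2.77 and 5.38 FPKM with 6-OHDA, against 11.7, 13.1, 4.24 and 21.4 FPKM in sham muscle, and fell by 1.19 ± 0.37 (adjusted p = 0.0300). Slc25a51, the NAD+ carrier (chromosome 4, 45395923 to 45408766), had 11.3, 10.1, 12.3 and 16.9 FPKM with 6-OHDA, against 17.1, 13.7, 17.7 and 17.2 FPKM in sham muscle, and fell by 0.40 ± 0.11 (adjusted p = 0.0200). In each of these the ranges overlapped, and replicate 2 held the treated value nearest to sham for Slc25a45 and Slc25a51. Slc25a36 fell by 0.53 ± 0.14 (adjusted p = 0.0187) and Slc25a15, the ornithine carrier, by 0.42 ± 0.13 (adjusted p = 0.0315). With own totals Slc25a15, Slc25a36 and Slc25a51 were at -0.03, -0.14 and -0.01 and did not pass, and 6 carriers were higher and 1 lower.

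Among carriers called in wild-type muscle, Slc25a1 had 2.28, 5.17, 2.69 and 1.13 FPKM in RE-RE 6-OHDA muscle, against 1.02, 2.09, 1.63 and 1.37 FPKM in RE-RE sham muscle (0.72 ± 0.30, adjusted p = 0.0722). Slc25a5 had 35.7, 36.6, 43.7 and 23.2 FPKM with 6-OHDA, against 33.6, 21.6, 41.1 and 22.95 FPKM in sham muscle (0.24 ± 0.20, adjusted p = 0.362). Slc25a27 had 5.66, 2.39, 3.63 and 8.15 FPKM with 6-OHDA, against 4.33, 8.39, 3.55 and 6.55 FPKM in sham muscle (-0.27 ± 0.29, adjusted p = 0.472). For these 3 the groups overlapped and none passed. Slc25a4 had 1561, 805, 1146 and 1744 FPKM with 6-OHDA, against 2812, 1552, 2587 and 1592 FPKM in sham muscle, a difference of -0.71 ± 0.26 just short of the threshold (adjusted p = 0.0525).

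These RE-RE counts rest on single libraries. None passed without 6-OHDA replicate 1 (0.257% of all genes) or 4 (0.218%), 2 passed without sham replicate 1 (2.00%), and 1 without sham replicate 3 (1.34%). Without 6-OHDA replicate 2 or 3, 16 and 13 passed (42.6% and 35.1% of all genes), and without sham replicate 4, 15 (49.2%). Without the 3 libraries that stood apart 16 passed, 4 higher and 12 lower, against 28.1% of all genes. Macrophage, fibroblast and adipocyte markers had positive medians (1.08, 0.46 and 0.61) in this comparison with none past the test, and 6 of 7 slow or oxidative fibre markers and 8 of 10 regeneration markers rose. No skeletal muscle or Schwann cell marker passed, 1 of 5 erythroid markers fell and 2 of 6 endothelial markers rose. With all RE-RE libraries 11.9% of all genes rose and 15.0% fell.

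**Figure D5:**
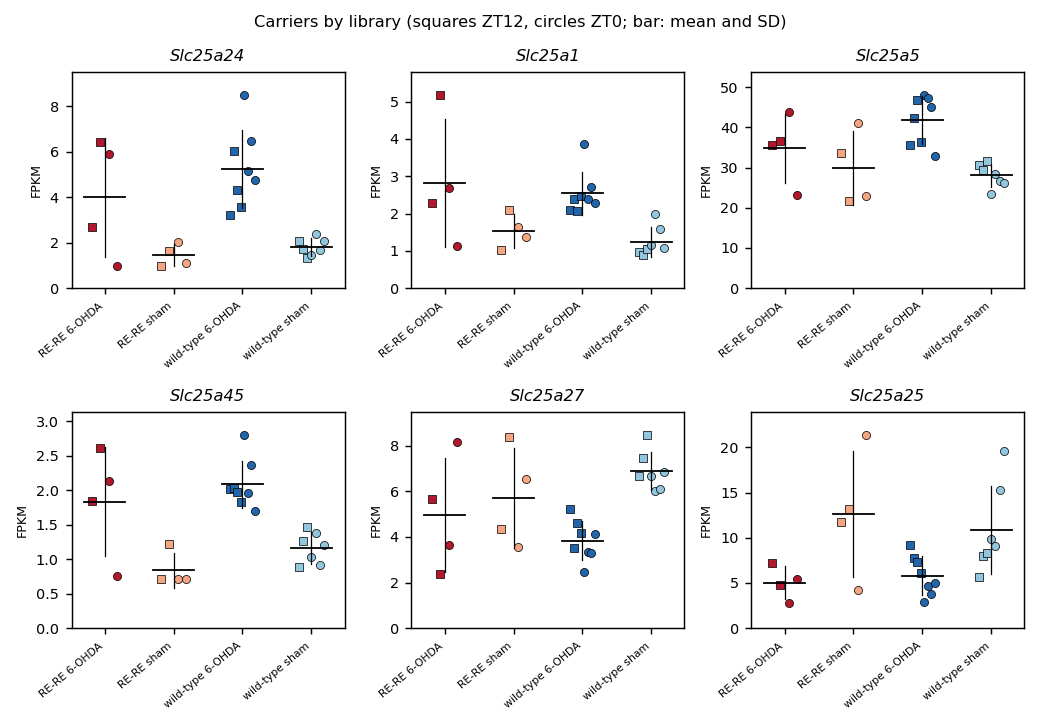
Levels of Slc25a24, Slc25a1, Slc25a5, Slc25a45, Slc25a27 and Slc25a25 in FPKM (linear axes from 0), 1 point per library (squares ZT12, circles ZT0) with the mean and SD, 6-OHDA left of sham in each genotype. The wild-type groups of the first 5 carriers do not overlap, and the RE-RE groups do.

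The genotypes were compared within each treatment, and the treatment effects were compared between genotypes. In sham muscle 3 carriers differed as RE-RE minus wild-type, 8.11% against 9.91% of all genes. Slc25a32 had 3.51 to 5.13 FPKM in RE-RE sham muscle, against 2.54, 2.09 and 2.03 FPKM at ZT12 and 2.75, 1.73, 2.48 and 2.98 FPKM at ZT0 in wild-type sham muscle. It was higher in RE-RE by 0.84 ± 0.16 (adjusted p = 0.00924) and the only carrier without overlap, where 3.48% of all genes were. Slc25a30 averaged 2.99 ± 0.844 FPKM in RE-RE (SD, n = 4) and 2.05 ± 0.762 FPKM in wild-type sham muscle (SD, n = 7) and was higher by 0.52 ± 0.14 (adjusted p = 0.0306). Slc25a29, a carrier of basic amino acids, averaged 2.29 ± 1.25 FPKM in RE-RE (SD, n = 4) and 3.73 ± 1.06 FPKM in wild-type sham muscle (SD, n = 7), lower by 0.84 ± 0.26 (log2 -0.84, adjusted p = 0.0494).

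The RE-RE sham libraries that stood apart weigh on this. They held 1.42 and 1.27 FPKM of Slc25a29, against 3.98 and 2.50 FPKM in the other RE-RE sham libraries, and likewise 3.01 and 2.08 FPKM of Slc25a42, the CoA carrier, against 8.78 and 7.86 FPKM, and 1.09 and 0.794 FPKM of Slc25a22, a glutamate carrier, against 4.19 and 3.06 FPKM. Their Slc25a4 was higher, at 2587 and 2812 FPKM against 1592 and 1552 FPKM. Without the 3 libraries that stood apart no carrier passed (2.24% of all genes), and Slc25a29 was at -0.22 and Slc25a32 at 0.68 (adjusted p = 0.0609). The RE-RE sham mice were also younger, and none passed with age as a covariate (0.523% of all genes). Without RE-RE sham replicate 1 or 3 none passed (0.827% and 1.10% of all genes), without replicate 2 or 4 there were 12 and 10 (33.7% and 37.6%), and without wild-type sham replicate 6 or 7 there was 1 (5.65% and 2.23%).

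In 6-OHDA muscle no carrier differed between RE-RE and wild-type, against 0.226% of all genes, and 3 had an unadjusted p under 0.05 (8.11%, against 9.06% of all genes). These were Slc25a32 (-0.38 ± 0.16, adjusted p = 0.461), Slc25a30 (-0.33 ± 0.13, adjusted p = 0.467) and Slc25a34 (0.50 ± 0.22, adjusted p = 0.5). The treatment effect itself differed between genotypes for 1 carrier, Slc25a32, against 0.0702% of all genes. The effect on it was -0.94 ± 0.18 in RE-RE muscle and 0.29 ± 0.13 in the wild-type, where it did not pass, and the difference was -1.22 ± 0.22 (adjusted p = 0.0475). That call lay at the threshold. It was lost in 18 of 23 cases with 1 library left out (adjusted p up to 0.156) and under 8 of 11 other settings (up to 0.945), while the difference stayed between -1.40 and -0.90. Slc25a30 had the second smallest p, with a difference of -0.84 ± 0.19 (adjusted p = 0.104).

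Other mitochondrial transport and energy genes were counted beside the carriers, from lists chosen with earlier results of these data known. Of all genes 18.8% rose and 15.9% fell with 6-OHDA in wild-type muscle, and 11.9% and 15.0% in RE-RE muscle. Counts here and in the next paragraph are to be read against these shares, and small ones say little about a list. They use the deposited scaling, as do the counts of cell markers above, and were not repeated with own totals of recovered reads. As for the carriers, the direction of small differences depends on that scaling. Of 4 tested family members under other symbols in wild-type muscle, Ucp2 and Mtch1 rose with 6-OHDA (1.58 ± 0.29 and 0.55 ± 0.14) and Ucp3 fell (-1.16 ± 0.26). Of 10 genes for the pyruvate carrier, the porins and the sideroflexins, 7 fell and 1 rose. The serine carrier Sfxn1 rose (0.87 ± 0.21), while Sfxn4 (-0.58 ± 0.15) and the outer-membrane porin Vdac3 (-0.65 ± 0.19) fell. In RE-RE muscle Mtch1 rose (0.68 ± 0.19) and Mtch2 fell (-0.61 ± 0.22), and 4 of the 10 fell, with the smallest p-values for Vdac1 (-0.74 ± 0.23), Vdac3 (-0.84 ± 0.26) and the pyruvate carrier subunit Mpc2 (-0.78 ± 0.25).

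Among 8 genes of mitochondrial calcium transport, 3 rose and 1 fell in wild-type 6-OHDA muscle, with Mcub, a subunit that dampens the uniporter, at 1.75 ± 0.33. In RE-RE muscle the sodium/calcium exchanger Slc8b1 rose (0.78 ± 0.20) and Micu3 fell (-0.89 ± 0.23). Of 12 enzymes that work with the carriers, 3 fell, among them Gpd2 (-1.03 ± 0.26) and Cpt1b (-0.86 ± 0.30), and 1 rose, Acly (0.41 ± 0.14), which splits the citrate that Slc25a1 exports. Cpt1b was low in this table, at 0.206 to 1.33 FPKM over all libraries. Of 11 genes of carrier import tested, 2 fell, Timm9 (-0.61 ± 0.13) and Tomm7 (-0.66 ± 0.20), and in RE-RE muscle 1 fell, Tomm70a (-0.46 ± 0.17). Of 26 nuclear genes of oxidative phosphorylation 6 fell and none rose (median -0.29), and 12 of 13 genes of the mitochondrial genome fell (median -1.18). In RE-RE muscle 9 of the 26 fell (median -0.55) and 8 of the 13 (median -1.20), and of the 12 enzymes Ckmt2 (-0.77 ± 0.28). None of 8 biogenesis genes passed in wild-type muscle, and in RE-RE muscle Gabpa (-0.51 ± 0.13) and Ppargc1a (-0.68 ± 0.22) fell. The RE-RE rises and falls in both list paragraphs have the limits given above for that treatment comparison. Its groups did not overlap in age. Almost no gene passed in it with age as a covariate, and no gene with array weights. None of these lists had a member past the test for time in wild-type muscle of either treatment, where 0.671% (6-OHDA) and 0.647% (sham) of all genes passed.

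Over 12 comparisons 18 of 37 carriers passed at least once (48.6%, against 52.2% of all genes) and 19 in none. The carriers that never passed include the most abundant ones, Slc25a4, Slc25a3, Slc25a11 and Slc25a12. Slc25a36 passed in the most comparisons, 4, followed by Slc25a30, Slc25a32 and Slc25a34 in 3 each. Comparisons that share libraries are not independent of each other.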

How the data were processed

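Paired-end reads of 150 bases were made from RNA of whole tibialis anterior, per the labels' protocols. Per the submitters' processing notes the build was GRCm38 and the tools were HISAT2 2.1.0, edgeR 3.30.0, FastQC 0.11.8, featureCounts 1.6.2 and Trim Galore 0.5.0. The deposited table holds log2 values, log2(FPKM + 0.01). Any factor applied between libraries, and the strand of counting, are not given in the sources used here.

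Symbols and exon lengths came from GENCODE M21. The deposited log2 values of all genes past the filter were fitted with limma 3.58.1 (R 4.3.3), a mean for each of the 8 groups, contrasts, and eBayes with a trend. Adjusted p-values (Benjamini-Hochberg) cover the 12820 genes tested, with a threshold of 0.05. Log2 differences are on the log2(FPKM + 0.01) scale, which understates changes of very low genes, and FPKM means and SD are linear. Reads were recovered from the steps of low FPKM values and exon lengths. Between 86.4% and 94.7% of values up to 20 reads were whole within 0.1 read, and a count model on these reads was an alternative only. The fit was tested on simulated data. Promoter windows are RefSeq on GRCm38.p6. Summaries and figures used pandas 2.3.3, matplotlib 3.10.9, numpy 2.4.6 and python 3.11.15.

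The carriers, lists, comparisons and alternatives were chosen with earlier results of these data known. Named are all carriers past the test, the highest of each substrate group, and the 3 smallest p-values where none passed, with values per library for the 12 carriers called most often. Values by library of Slc25a4, Slc25a22, Slc25a29, Slc25a33 and Slc25a42 were added after they were seen. Of other lists at most 3 genes with the smallest p-values are named per comparison, and 1 such gene is not reported here. The alternatives were a pseudocount of 1, testing unfiltered genes, a higher floor on the mean level, quantile normalization, own totals of recovered reads, limma-voom, array weights, age, the replicate block, the compared groups alone, and leaving libraries out. The genotype difference of the sham time effect was added after values were seen.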

Additional observations from a re-analysis of the deposited data

Results flagged for a closer look

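In wild-type 6-OHDA muscle at ZT0, Slc25a5 was 32.8 FPKM in replicate 4, far from the 48.0, 47.4 and 45.1 FPKM of the other libraries. On the log2 scale, the only one tested, the gap was 0.836 of the whole range. This was the only such value in 36 sets of 4 values (12 carriers in each of the 3 groups that hold 4 libraries), and chance gives about 1 set in 20. The effect of 6-OHDA on Slc25a32 differed between RE-RE and wild-type muscle by -1.22 log2 units in a test of that difference. The time effect on Slc25a34 in 6-OHDA muscle differed between RE-RE and wild-type mice by -3.70 log2 units in the same kind of test.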

How the results depend on the processing

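Values are numbers of carriers called. Array weights gave 19 for 6-OHDA in wild-type muscle (12 in the fit reported; 59.4% of all genes with the weights), 13 and 6 for time in wild-type 6-OHDA and sham muscle (3 and 2; 12.5% and 5.51% of all genes), 1 for the change of the wild-type time effect with 6-OHDA (0; 0.211% of all genes), and 0 for 6-OHDA in RE-RE, the genotypes in sham muscle, time in RE-RE 6-OHDA muscle, and both differences between genotypes, where 0% of all genes passed. Age as a covariate gave 0 for 6-OHDA in RE-RE, the genotypes in sham muscle, time in wild-type 6-OHDA muscle and the genotype difference of the 6-OHDA effect. Fitting the compared groups alone gave 0 for 6-OHDA in RE-RE, the genotypes in sham muscle, time in RE-RE 6-OHDA muscle and its difference from wild-type. Without the 3 RE-RE libraries that stood apart there were 16 for 6-OHDA in RE-RE, and 0 for the genotypes in sham muscle and for time in RE-RE 6-OHDA muscle. The genotype difference of the 6-OHDA effect (1) was 0 also with a pseudocount of 1, unfiltered genes, a higher floor on the mean level, quantile normalization, limma-voom and the replicate block.

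Leaving out 1 library at a time gave 7 to 13 for 6-OHDA in wild-type, 0 to 16 in RE-RE, 0 to 1 and 0 to 12 for genotype in 6-OHDA and sham muscle, 0 to 2 and 1 to 2 for time in wild-type 6-OHDA and sham muscle, 0 to 8 and 0 to 0 in RE-RE, 0 to 4 for the genotype difference of the 6-OHDA effect, 0 to 0 for the change of the wild-type time effect, and 1 to 11 and 0 to 0 for genotype differences of the time effect in 6-OHDA and sham muscle. Where 1 library was left in a group, it was assumed to vary like the other groups.

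Deviations of same-numbered libraries correlated at 0.101 or 0.165 in RE-RE (best with their own number in 2 of 4) and -0.123 to 0.0657 in wild-type (1 of 7). The 2 libraries of a RE-RE group deviate by equal and opposite amounts. Each RE-RE correlation is therefore counted for 2 replicate numbers and says little about pairing. The numbers were not taken to pair libraries over the study. The replicate block gave 11 for 6-OHDA in wild-type and 8 in RE-RE. Of 662 pairs of a called value and a setting, 461 kept their call, 201 lost it and 0 reversed. Small numbers per RE-RE group limit precision, and differences within the scaling shift have no fixed direction.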
